A study of Mus musculus with 47 samples.

Results

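The 48 genes described here are the proteasome genes of the mouse striatum: every gene of the deposited count table whose symbol is Psma, Psmb, Psmc, Psmd, Psme, Psmf or Psmg followed by a number, out of 48795 genes in all. They fall into 8 Psma and 11 Psmb genes of the 20S core, 6 Psmc genes for the ATPases of the 19S base, 14 Psmd genes for the lid, the rest of the base and 3 chaperones of the base, 4 Psme activators, the inhibitor gene Psmf1 and 4 Psmg chaperones of core assembly. The rule used symbols and no measured value, and 47 of the 48 passed the filter on low counts. The gene left out was Psmb11, the catalytic subunit of the thymus proteasome, with 14 reads in all, spread over 9 of the 47 libraries and at most 4 in one.

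RNA came from the corpus striatum of 47 mice on a C57BL background, all 6 months old, in 6 genotype groups. Wild type mice, heterozygous Q140 Htt knock-in mice (Q140), Ccdc82+/- mice, Ccdc82-/- mice and Q140 Ccdc82+/- mice were represented by 8 libraries each, 4 from females and 4 from males. Q140 Ccdc82-/- mice were represented by 7, 3 from females and 4 from males. Q140 is an expanded CAG allele knocked into the mouse Htt gene, a model of Huntington's disease that is present in every cell, and Ccdc82 encodes a coiled-coil protein. The labels do not say which part of Ccdc82 was removed, and no Cre or promoter is named. Each library is 1 sample of striatal tissue, and p-values measure the spread between these libraries.

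Total counts ran from 41.3 to 61.7 M reads per library, and 19193 genes were tested. All 12 medium spiny neuron markers were detected, with a summed level of 13097 to 14888 CPM (counts per M reads of the library, after scaling with TMM factors, which edgeR takes from the bulk of genes) in wild type and 8171 to 9988 in Q140. In the average of the Q140 comparisons 11 of these 12 markers were lower and Tac1 was higher, where 25.5% of all genes were lower and 28.8% higher. Ccdc82 stood at 12.01 CPM ± 0.773 (SD, n = 8) in wild type, 8.42 ± 0.519 (n = 8) in Ccdc82+/- and 4.57 ± 0.666 (n = 8) in Ccdc82-/- libraries, and each step was larger than the spread (exact two-sided permutation p = 0.000155, the smallest these groups allow). In the presence of Q140 the levels were 11.6, 8.61 and 4.56 CPM, so reads of the gene remained in the homozygotes. Choroid plexus markers summed to 340 CPM in 1 Ccdc82-/- library (male 1) and to 70.8 in 1 wild type library (male 1), against at most 55.1 in the others.

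The proteasome is the protease that degrades proteins tagged with ubiquitin in the cytosol and nucleus. Its 20S core is a barrel of outer alpha rings, which gate the entry, around inner beta rings, which carry the proteolytic sites. The 19S regulatory particle sits on the ends of the barrel, where its base unfolds substrates with a ring of ATPases and its lid removes the ubiquitin. Cells exposed to interferon can replace the standard catalytic subunits Psmb5, Psmb6 and Psmb7 by the immunoproteasome subunits Psmb8, Psmb9 and Psmb10, and can cap the core with the PA28 activator formed by Psme1 and Psme2. In neurons the proteasome is known for its role in synaptic protein turnover and in the handling of misfolded proteins such as expanded huntingtin.

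RefSeq promoter windows (GRCm38.p6, 250 bases before to 50 bases after each annotated start) were found for 40 of the 48 genes. The stretches that lie before the start and outside annotated exons are shown for Psme1, Psme2 and Psmb10, the 3 genes of the PA28 cap and the immunoproteasome that were higher in Q140 striatum. The Psme1 stretch is chr14:55578249-55578359 (plus strand), the Psme2 stretch chr14:55591114-55591351 (minus strand) and the Psmb10 stretch chr8:105938445-105938642 (minus strand), each written 5′ to 3′ along the gene. Psme1 as annotated by GENCODE begins at 55578123, before its RefSeq start. Its stretch therefore lies within the gene, between annotated exons, while those of Psme2 and Psmb10 lie outside their genes.
Psme1: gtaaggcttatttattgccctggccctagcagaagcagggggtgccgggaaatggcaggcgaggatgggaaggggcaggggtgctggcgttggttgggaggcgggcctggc
Psme2: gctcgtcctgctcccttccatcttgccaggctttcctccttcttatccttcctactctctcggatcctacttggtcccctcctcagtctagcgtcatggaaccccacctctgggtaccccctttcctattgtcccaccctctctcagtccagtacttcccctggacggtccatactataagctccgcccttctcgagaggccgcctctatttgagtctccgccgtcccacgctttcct
Psmb10: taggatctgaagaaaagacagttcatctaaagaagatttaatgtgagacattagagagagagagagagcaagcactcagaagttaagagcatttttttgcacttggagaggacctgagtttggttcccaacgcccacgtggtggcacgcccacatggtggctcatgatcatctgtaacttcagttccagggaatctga

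Both strands of the windows were searched for the core letters of 4 elements. The core of the interferon-stimulated response element, GAAA followed by any 2 bases and GAAA, was present in the windows of 5 members, Psmb3, Psmd4, Psmd9, Psme1 and Psmg4, which is 11.6% of the members' 43 windows against 3.44% of all 32851 windows. These matches are shown because Psme1 was the member with the smallest p in Q140 striatum and shares the motif with 4 genes whose log2 fold changes were smaller. Each 30-base stretch is written 5′ to 3′ along the gene, with the match in capitals.
Psmb3: cacagtgactTTTCACTTTCcgctttccat
Psmd4: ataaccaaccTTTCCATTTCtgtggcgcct
Psmd9: gggacagaatGAAAAAGAAAggaatgaaca
Psme1: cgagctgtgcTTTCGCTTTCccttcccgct
Psmg4: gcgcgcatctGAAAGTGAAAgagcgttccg
The match lay 163 bases before the start of Psmb3 (chr11:97703261-97703290, plus strand), 80 before that of Psmd4 (chr3:95042675-95042704, minus strand) and 159 before that of Psmd9 (chr5:123228021-123228050, plus strand). In Psme1 (chr14:55578493-55578522, plus strand) and Psmg4 (chr13:34162969-34162998, plus strand) it lay 10 and 16 bases after the start. The windows of Psme2 and Psmb10 did not hold these letters.

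The core of the antioxidant response element, TGACNNNGC, which the proteasome regulator Nfe2l1 is known to bind, was present in the windows of 6 members, 13.95% of the members' windows against 12.4% of all windows. It is shown for Psmb5, Psmb6 and Psmc6, 2 core genes and a base ATPase gene whose log2 fold changes in Q140 striatum were 0.099, -0.026 (not past the threshold) and 0.071, with the match in capitals.
Psmb5: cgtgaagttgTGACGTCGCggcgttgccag
Psmb6: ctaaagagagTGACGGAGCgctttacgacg
Psmc6: ccagccagtaGCTAAGTCAggcattgctca
These stretches are chr14:54618023-54618052 (minus strand), chr11:70525338-70525367 (plus strand) and chr14:45329587-45329616 (plus strand). The other windows with this core were those of Psmd9, Psmd12 and Psme4. The CCAAT box, CCAAT, was present in 32.6% of the members' windows and 37.4% of all windows, and the core of the gamma-interferon activated site, TTCNNNGAA, in 6.98% and 8.30%. A match describes letters in a window and not a bound site.

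Levels were compared between genes as FPKM, the deposited value per kilobase of gene and M reads. Over the 47 libraries Psmb1, a structural beta subunit, had the highest mean FPKM at 76.7, followed by the base ATPase genes Psmc5 at 73.7 and Psmc1 at 63.0. The 48 genes had a median of 18.1 FPKM. The Psmc class stood highest, with a median of 39.2 FPKM, against 18.8 for Psma, 17.4 for Psmb, 19.1 for Psmd, 8.29 for Psme and 6.20 for Psmg. The lowest of the genes tested were Psma8, the germ cell form of an alpha subunit, at 0.160 FPKM, and the immunoproteasome genes Psmb9 at 0.248 and Psmb8 at 0.701. The third immunoproteasome gene, Psmb10, stood at 3.47 FPKM, against 35.2 for Psmb5, 35.2 for Psmb6 and 17.4 for Psmb7, the standard catalytic genes. Among the activators Psme3, the nuclear PA28 gamma, had 32.8 FPKM, more than Psme1 (8.53), Psme4 (8.05) and Psme2 (3.31). The length behind an FPKM value, worked out from the counts and the FPKM, was 1 number per gene (3894 bases for Psma3). Which exons it covers is not given in the sources used here, and the order of levels between genes depends on it.

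**Figure D1:**
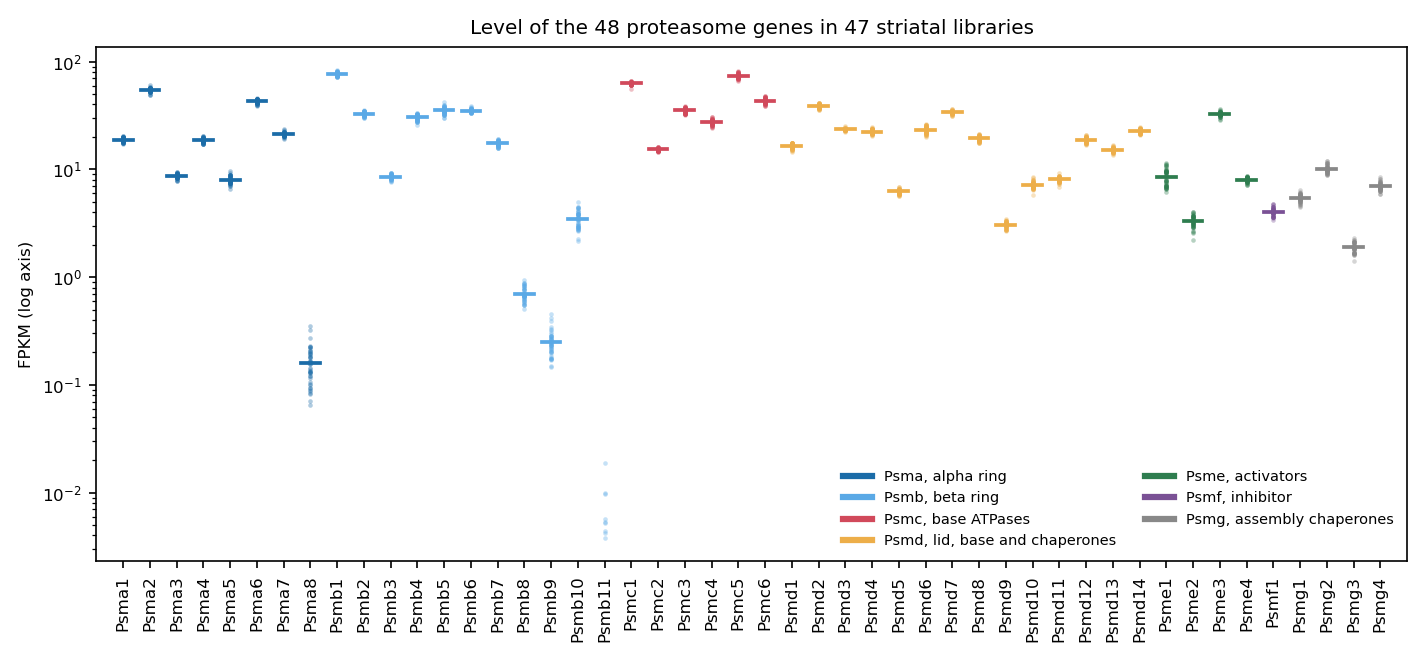
FPKM of the 48 proteasome genes on a log axis, coloured by class, with 1 point per library (47 libraries, values of 0 not drawn) and a line at the mean for all genes but Psmb11. The means of Psmb1, Psmc5 and Psmc1 lie at the top of the scale, while Psmc2 lies at 15.3 FPKM. Those of Psma8, Psmb9 and Psmb8 lie below 1 FPKM.

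Q140 libraries were compared with their controls on each of 3 Ccdc82 backgrounds, to see which proteasome genes differ with the expanded allele. The clearest proteasome genes were Psme1, a PA28 subunit, and Psmb10, an immunoproteasome subunit, 30.4% and 29.1% higher in Q140 striatum. The lid gene Psmd6 had the next smallest p at 9.07% higher, and its log2 fold change of 0.13 was below those of the core chaperone Psmg3 (0.16) and the PA28 gene Psme2 (0.15). Most other members differed by a few percent, and the median of the 47 members was a log2 fold change of 0.034 against 0.0043 over all genes. On the wild type background 12 of the 47 members were higher and 0 lower (edgeR quasi-likelihood test, adjusted p under 0.05), where 34.7% of all genes passed. With Ccdc82+/- as background 7 were higher and 3 lower, where 35% of all genes passed (16.7% were lower). With Ccdc82-/- as background 10 were higher and 2 lower, where 33.2% of all genes passed. In the average over the 3 backgrounds 24 were higher, 4 were lower and 19 did not pass, where 54.3% of all genes passed, 28.8% higher and 25.5% lower. At an unadjusted p under 0.05 there were 30 members in the average, where 58.3% of all genes passed. In bulk tissue, fewer cells of a type and less RNA per cell cannot be told apart.

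Only 4 members passed on each of the 3 backgrounds in 1 direction, Psmb10, Psmd1, Psmd6 and Psme1, where 23.1% of all genes did. Psmb5, Psmc6 and Psmd3 passed on 2 of them, and 24 members passed on none. How many of all genes passed on 2 backgrounds or on none was not counted, so these counts have no comparison. Whether a member's Q140 difference differed between backgrounds was tested as an interaction, given with the Ccdc82 comparisons. The log2 fold change had 1 sign on the 3 backgrounds, which share no library, in 36 of the 47 members, 30 above 0 and 6 below, and in 70.3% of all genes. Most differences were small with TMM: 6 of 47 (12.8%) differed by at least 0.1 on the log2 scale in the average, against 50.5% of all genes, and 3 (6.38%) by at least 0.3, against 13.5%. The first count depends on the scaling, since with total counts the members' median was 0.098, close to 0.1. Members and all genes were not matched for level.

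By class, 3 of the 8 Psma genes were higher in the average and 1 lower, 5 of the 10 Psmb genes tested were higher and 0 lower, and 3 of the 6 Psmc genes were higher and 2 lower. Of the 14 Psmd genes 8 were higher and 1 lower. Of the 4 Psme genes 2 were higher, as were Psmf1 and 2 of the 4 Psmg genes, and none of these was lower. Over all genes 28.8% were higher and 25.5% lower. With total counts 7 Psma genes were higher and 1 lower, and 8 Psmb, 4 Psmc, 12 Psmd, 4 Psme and 2 Psmg genes and Psmf1 were higher and none lower, where 45.1% of all genes were higher and 15.5% lower. The class medians were 0.024 for Psma, 0.027 for Psmb, 0.016 for Psmc, 0.040 for Psmd, 0.091 for Psme and 0.032 for Psmg on the log2 scale. Some calls lay near the threshold: in 14 other settings of the analysis Psma4 passed in 10, Psmb1 in 9, Psmd14 in 8, Psmg2 in 7 and Psmc5 in 4. Psmc2 passed in 8 and Psmd3 in 9, neither of them with total counts. The 14 settings include total counts and the FPKM fits, which share 1 scaling, under which 38 of the 47 members were higher. Psma2, Psma3 and Psmd10, which did not pass in the average with TMM, passed in 5 of the 14.

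**Figure D2:**
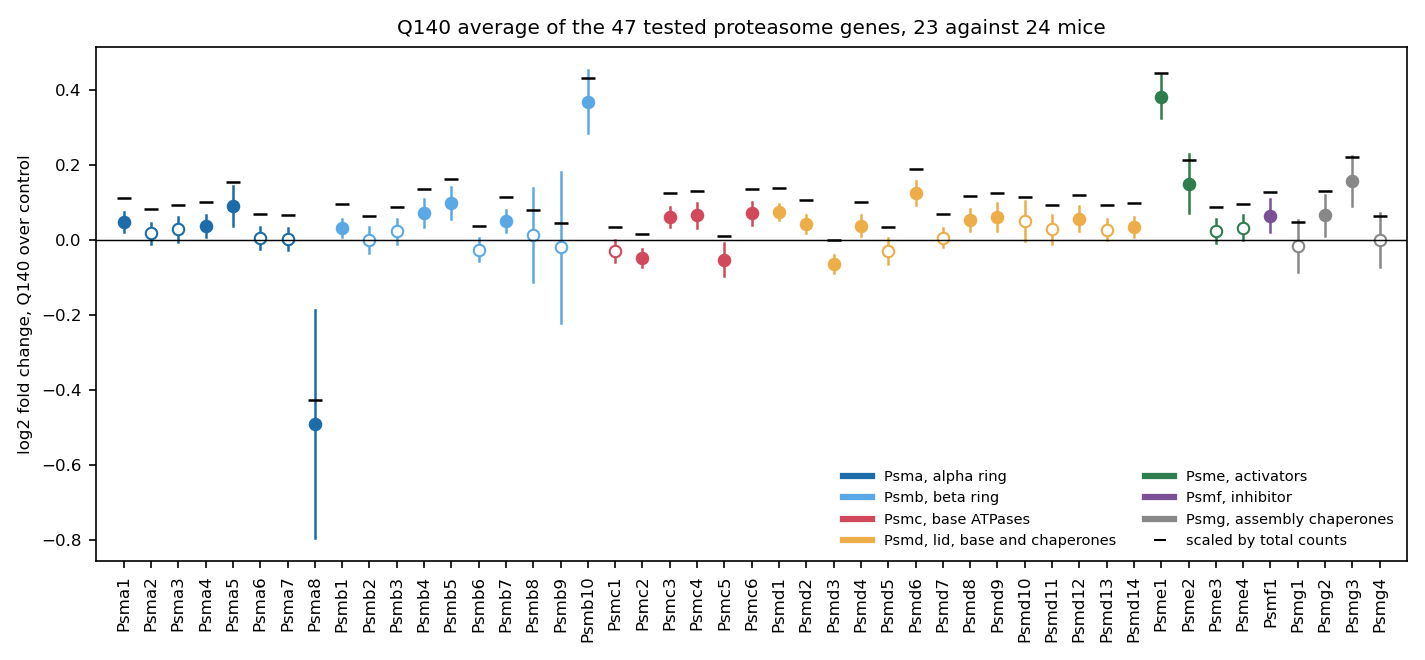
Log2 fold change of each of the 47 tested proteasome genes in the average Q140 comparison (edgeR, TMM scaling), with bars for the 95% confidence interval, coloured by class, filled where the adjusted p was under 0.05, and with a black dash for the value scaled by total counts. Psme1 and Psmb10 lie near 0.4 and Psma8 at -0.49 with a wide interval, while Psmc2, Psmc5 and Psmd3 lie below 0 with TMM and their dashes above it.

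These counts depend on how libraries are scaled. The TMM factor was 1.007 to 1.042 in all Q140 libraries and 0.952 to 0.998 in all libraries without Q140. As a share of all reads, the 48 genes took 0.227% in wild type libraries (0.225 to 0.232) and 0.244% in Q140 libraries (0.241 to 0.249), and the ranges did not overlap. The same held on the Ccdc82+/- background, 0.228% (0.220 to 0.236) against 0.242% (0.237 to 0.245), and on the Ccdc82-/- background, 0.229% (0.220 to 0.238) against 0.244% (0.239 to 0.246). With scaling by total counts, an alternative chosen after seeing the data, 38 members were higher in the average and 1 lower, where 60.6% of all genes passed, 8665 higher and 2970 lower. The members' median was then 0.098 and that of all genes 0.069. The lower member was Psma8; Psmc2, Psmc5 and Psmd3, lower with TMM, stood above 0 and did not pass. With TMM 5527 genes were higher and 4892 lower. CPM and log2 fold changes that follow use TMM unless total counts are named.

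The alpha ring genes differed little. Among Psma1 to Psma7 the log2 fold changes in the average ran from 0.0024 to 0.091, and Psma1, Psma4 and Psma5 passed (0.048 ± 0.013, 0.037 ± 0.014 and 0.091 ± 0.026, SE). Psma1 had a lowest, median and highest CPM of 53.0, 54.8 and 58.2 in wild type and 54.9, 57.1 and 58.5 in Q140 libraries, which overlap almost fully. Psma8 was the only alpha subunit that was lower, by 28.8% in the average (log2 fold change -0.49 ± 0.15, adjusted p = 0.00502, edgeR), and lower with total counts too (-0.43), but it did not pass with the plate column of the well as a factor (-0.37, adjusted p = 0.057) or with females only (-0.39, adjusted p = 0.126). It is a germ cell gene with 6 to 28 reads per library, and its groups overlapped on each background, with medians of 0.276 CPM in wild type and 0.235 in Q140 libraries.

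Of the structural beta genes Psmb1 to Psmb4, Psmb1 and Psmb4 were higher in the average (0.032 ± 0.013, adjusted p = 0.027, and 0.073 ± 0.019, adjusted p = 0.000903, edgeR). Psmb4 had a lowest, median and highest CPM of 54.8, 57.0 and 61.9 in wild type and 61.5, 62.0 and 64.2 in Q140 libraries, so that 4 of 8 Q140 libraries lay above every wild type one. On the other backgrounds Psmb4 did not pass (0.054 and 0.051). Psmb1 did not pass with RLE size factors (adjusted p = 0.063, edgeR), with DESeq2 (adjusted p = 0.0555), without the 2 libraries highest in choroid plexus markers (adjusted p = 0.0589, edgeR) or in either sex alone. Psmb2 and Psmb3 did not pass, with averages of 0.00033 and 0.023, but all 4 genes were higher with total counts.

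The standard catalytic genes are Psmb5, with chymotrypsin-like activity, Psmb6, with caspase-like activity, and Psmb7, with trypsin-like activity. Psmb5 had a lowest, median and highest CPM of 27.0, 29.0 and 31.2 in wild type and 29.3, 30.7 and 35.9 in Q140 libraries. With 1 copy of Ccdc82 lost the values were 26.9, 30.3 and 31.8 without and 28.4, 31.6 and 33.1 with Q140, and on the Ccdc82-/- background 28.0, 29.5 and 31.0 without and 31.0, 32.0 and 33.6 with Q140. The groups overlapped on each background, with 3, 4 and 6 Q140 libraries above the highest control. The log2 fold changes of Psmb5 were 0.12, 0.046 and 0.14, of which the first and the last passed, and the average was 0.099 ± 0.022 (adjusted p = 0.000111, edgeR). Psmb7 was higher in the average by 0.051 ± 0.014 (adjusted p = 0.00215), while Psmb6 did not pass (-0.026 ± 0.015, adjusted p = 0.142) and with total counts stood at 0.039 and passed. Psmb7 shares 405 exon bases with Nek6 on the opposite strand, which stood at -0.032 and did not pass (adjusted p = 0.419, edgeR).

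The 3 immunoproteasome genes did not move as a group. Psmb10, which replaces Psmb7, was higher in Q140 on every background, while Psmb8 and Psmb9, which replace Psmb5 and Psmb6, passed on none. Psmb10 (ENSMUSG00000031897, chromosome 8, 105935735 to 105938444, minus strand, GRCm38) had a lowest, median and highest CPM of 3.86, 5.08 and 5.84 in wild type and 5.91, 6.38 and 6.96 in Q140 libraries. In the Ccdc82+/- pair of groups the values were 4.79, 5.13 and 5.97 without and 5.90, 6.91 and 8.22 with Q140, and on the Ccdc82-/- background 4.59, 5.15 and 6.18 without and 6.19, 6.75 and 7.34 with Q140. Every Q140 library thus lay above every control on the wild type and Ccdc82-/- backgrounds, in the latter narrowly (6.19 against 6.18 CPM), and 6 of 8 did on the Ccdc82+/- background. The log2 fold changes were 0.37, 0.40 and 0.34, and the average was 0.37 ± 0.042 (adjusted p = 1.22e-10, edgeR).

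Psmb8 had a lowest, median and highest CPM of 1.52, 1.92 and 2.22 in wild type and 1.53, 1.82 and 2.19 in Q140 libraries. Its average was 0.014 ± 0.063 with a 95% interval from -0.11 to 0.14 (adjusted p = 0.87, edgeR). Psmb9 had 0.630, 0.913 and 1.22 CPM in wild type and 0.525, 0.908 and 1.24 in Q140 libraries. Its average was -0.019 ± 0.10 with an interval from -0.22 to 0.18 (adjusted p = 0.892, edgeR), and its values on the 3 backgrounds were -0.046, -0.28 and 0.27. Neither interval reaches the size seen for Psmb10. Psmb9 shares 212 exon bases with Tap1, a peptide transporter gene on the opposite strand, and whether the counting used strand is not given in the sources used here. Tap1 itself stood at 0.054 and did not pass (adjusted p = 0.567, edgeR).

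Ratios between pairs of genes within a library do not depend on the scaling. They were chosen after the fold changes were seen and tested with exact two-sided permutation tests over libraries, 18 tests in all with Benjamini-Hochberg adjustment, on log2 FPKM plus 0.01. The log2 ratio of Psmb10 to Psmb7 was larger in Q140 by 0.32 on the wild type background (exact p = 0.000311, adjusted p = 0.0028), by 0.33 on the Ccdc82+/- background (exact p = 0.00155, adjusted p = 0.00699) and by 0.31 on the Ccdc82-/- background (exact p = 0.00342, adjusted p = 0.0123). The ratio of Psmb10 to Psmb8 was larger by 0.43, 0.27 and 0.38 (exact tests, adjusted p = 0.0171, 0.0218 and 0.0136). Against Psmb9, the rarest of the 3, the difference was 0.45, 0.66 and 0.13 and passed on the Ccdc82+/- background (exact tests, adjusted p = 0.101, 0.00373 and 0.567). The ratios of Psmb8 to Psmb5 (-0.17, 0.071 and -0.17) and of Psmb9 to Psmb6 (-0.061, -0.21 and 0.23) did not pass on any background (exact tests, lowest adjusted p = 0.0666). Summed as FPKM, the 3 immunoproteasome genes made up 4.28% ± 0.381 (SD, n = 8) of the 6 catalytic genes in wild type and 4.94% ± 0.287 (n = 8) in Q140 libraries. The shares were 4.41% ± 0.422 (n = 8) and 5.38% ± 0.607 (n = 8) on the Ccdc82+/- background and 4.49% ± 0.442 (n = 8) and 5.21% ± 0.357 (n = 7) on the Ccdc82-/- background.

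**Figure D3:**
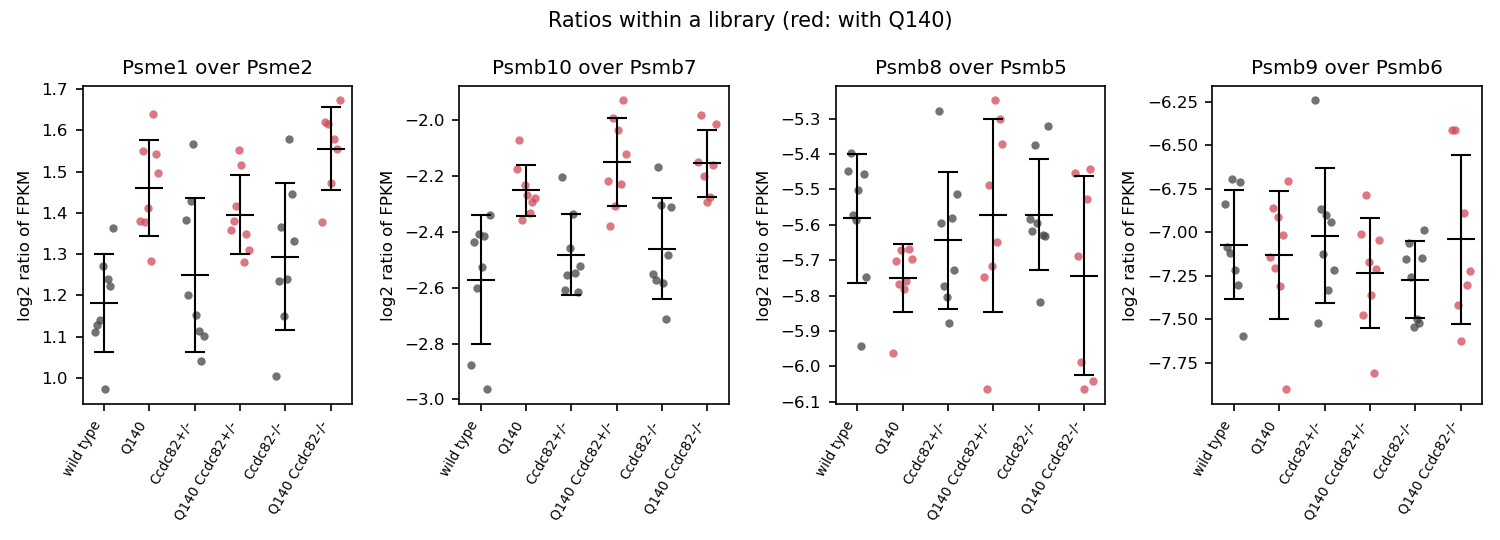
Log2 ratio of FPKM (plus 0.01) between 4 pairs of proteasome genes, 1 point per library (red with Q140, grey without) in the 6 genotype groups, with bars for the mean ± SD. The mean of Psmb10 over Psmb7 is higher with Q140 on each background, and the groups of Psmb8 over Psmb5 and of Psmb9 over Psmb6 overlap throughout.

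The ATPase genes of the base, Psmc1 to Psmc6, encode the hexameric ring that unfolds substrates. Psmc3, Psmc4 and Psmc6 were higher in the average by 0.062 ± 0.013 (adjusted p = 6.58e-05), 0.065 ± 0.016 (adjusted p = 0.000602) and 0.071 ± 0.016 (adjusted p = 0.000123, edgeR). Psmc2 and Psmc5 were lower by small amounts with TMM, -0.048 ± 0.012 (adjusted p = 0.000873) and -0.053 ± 0.022 (adjusted p = 0.0407, edgeR), and turned to 0.016 and 0.012 with total counts, where neither passed. Psmc5 also did not pass without the filter on low counts (adjusted p = 0.0802), with the well column as a factor (adjusted p = 0.0666), without the 2 choroid-high libraries (adjusted p = 0.0514, edgeR) or in either sex alone. Psmc1 did not pass with TMM (-0.029 ± 0.014, adjusted p = 0.0745, edgeR) and was lower with RLE size factors (-0.034, adjusted p = 0.0389, edgeR) and DESeq2 (adjusted p = 0.0334) but higher with total counts (0.035, adjusted p = 0.0165, edgeR). The ATPase genes therefore did not share a direction with TMM, and with total counts 4 were higher and 0 lower. Psmc3 had a lowest, median and highest CPM of 86.6, 88.1 and 92.5 in wild type and 90.4, 95.3 and 97.8 in Q140 libraries, with 7 of 8 Q140 libraries above every wild type one. Its log2 fold change was 0.10 there and 0.046 and 0.037, not past the threshold, on the other backgrounds. Psmc3 shares 215 exon bases with Slc39a13 on the opposite strand, which stood at 0.071 (adjusted p = 0.00255, edgeR).

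The remaining base genes are Psmd1 and Psmd2, large scaffolds that dock ubiquitin carriers, and Psmd4, a ubiquitin receptor. All 3 were higher in the average, by 0.075 ± 0.011, 0.042 ± 0.012 and 0.038 ± 0.014 (adjusted p = 3.89e-08, 0.00229 and 0.0185, edgeR). Psmd1 had a lowest, median and highest CPM of 113.3, 117.1 and 120.0 in wild type and 122.3, 124.4 and 125.6 in Q140 libraries. With 1 copy of Ccdc82 lost the values were 110.8, 116.2 and 120.9 without and 118.3, 120.1 and 123.9 with Q140, and on the Ccdc82-/- background 109.1, 115.4 and 119.9 without and 120.4, 122.7 and 124.8 with Q140. The groups did not overlap on the wild type and Ccdc82-/- backgrounds, and on the Ccdc82+/- background 3 of 8 Q140 libraries lay above every control. The residual SD of Psmd1 was 0.032 on the log2 scale, the lowest of the 47 members tested.

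In the lid, Psmd6, Psmd8, Psmd12 and Psmd14 were higher in the average, Psmd3 was lower with TMM and at 0.00023 with total counts, and Psmd7, Psmd11 and Psmd13 did not pass. Psmd6, a scaffold subunit of the lid, had a lowest, median and highest CPM of 48.2, 51.7 and 54.2 in wild type and 55.0, 57.3 and 59.9 in Q140 libraries. In the Ccdc82+/- pair of groups the values were 48.1, 51.6 and 54.6 without and 51.3, 55.7 and 56.5 with Q140, and on the Ccdc82-/- background 50.2, 52.5 and 56.7 without and 54.6, 58.2 and 59.7 with Q140. The groups were separate on the wild type background and overlapped on the other backgrounds. The log2 fold changes were 0.16, 0.088 and 0.13, each past the threshold, and the average was 0.13 ± 0.016 (adjusted p = 1.73e-09, edgeR). Psmd12, another lid scaffold, was separate on the wild type background too, from 45.2 to 49.5 CPM in wild type and from 50.4 to 52.8 in Q140 libraries, and passed only there (0.097, 0.047 and 0.027). Psmd14, the deubiquitinase of the lid, differed by 0.034 ± 0.013 (adjusted p = 0.0284, edgeR) and did not pass with RLE size factors (0.029, adjusted p = 0.0601, edgeR).

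Psmd3, the lid scaffold with the smallest p among the lower members, had a lowest, median and highest CPM of 114.8, 118.7 and 122.0 in wild type and 111.0, 115.6 and 117.9 in Q140 libraries. With 1 copy of Ccdc82 lost the values were 116.1, 120.3 and 124.7 without and 111.5, 113.8 and 116.6 with Q140, and on the Ccdc82-/- background 115.9, 118.7 and 127.6 without and 109.1, 113.0 and 119.3 with Q140. The groups overlapped on each background, with 3, 7 and 5 Q140 libraries below the lowest control. The average was -0.064 ± 0.011 with TMM (adjusted p = 4.53e-06, edgeR) and 0.00023 with total counts. Relative to the other lid genes Psmd3 was at the low end under both scalings, and its absolute direction rests on the scaling. Across all members, the Q140 and control libraries did not overlap in 5 members on the wild type background (Psmb10, Psmd1, Psmd6, Psmd12 and Psme1), where 9.77% of all genes did not overlap, in 1 on the Ccdc82+/- background (Psme1), against 10.3%, and in 3 on the Ccdc82-/- background (Psmb10, Psmd1 and Psme1), against 9.48%.

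The activators divide into the PA28 pair Psme1 and Psme2, which form a mixed ring, the nuclear Psme3 and the large single-chain activator Psme4. Psme1 (ENSMUSG00000022216, chromosome 14, 55578123 to 55581529, plus strand, GRCm38) had a lowest, median and highest CPM of 14.2, 15.7 and 19.2 in wild type and 19.90, 20.998 and 23.03 in Q140 libraries. In the Ccdc82+/- pair of groups the values were 15.0, 16.5 and 18.7 without and 19.5, 20.3 and 24.3 with Q140, and on the Ccdc82-/- background 15.4, 16.2 and 17.9 without and 20.6, 22.1 and 23.96 with Q140. All 23 Q140 libraries lay above every control of their background, and Psme1 was the only member of which this held on all 3. The log2 fold changes were 0.40, 0.31 and 0.43, and the average was 0.38 ± 0.028 (adjusted p = 1.57e-16, edgeR). Psme1 shares 14 exon bases with Emc9 on the opposite strand, which stood at 0.044 and did not pass (adjusted p = 0.109, edgeR).

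Psme2, the partner of Psme1, changed less. It had a lowest, median and highest CPM of 5.15, 5.62 and 6.12 in wild type and 5.39, 6.25 and 6.68 in Q140 libraries. With 1 copy of Ccdc82 lost the values were 4.04, 5.79 and 6.49 without and 5.55, 6.25 and 6.77 with Q140, and on the Ccdc82-/- background 4.68, 5.40 and 6.12 without and 5.21, 6.07 and 6.88 with Q140. The groups overlapped on each background, with 5, 3 and 3 Q140 libraries above the highest control. Psme2 passed on no background by itself (0.12, 0.16 and 0.17, adjusted p = 0.153, 0.0594 and 0.0582, edgeR), and the average was 0.15 ± 0.039 (adjusted p = 0.00103, edgeR). The log2 ratio of Psme1 to Psme2 was larger in Q140 by 0.28 on the wild type background (exact permutation p = 0.000311, adjusted p = 0.0028) and by 0.26 on the Ccdc82-/- background (exact permutation p = 0.00513, adjusted p = 0.0136). On the Ccdc82+/- background the difference of 0.15 did not pass (exact permutation p = 0.0695, adjusted p = 0.104). This ratio was chosen after Psme1 was seen to differ more than Psme2, so its tests describe that difference and are no independent support, and whether it depends on the background was not tested.

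**Figure D4:**
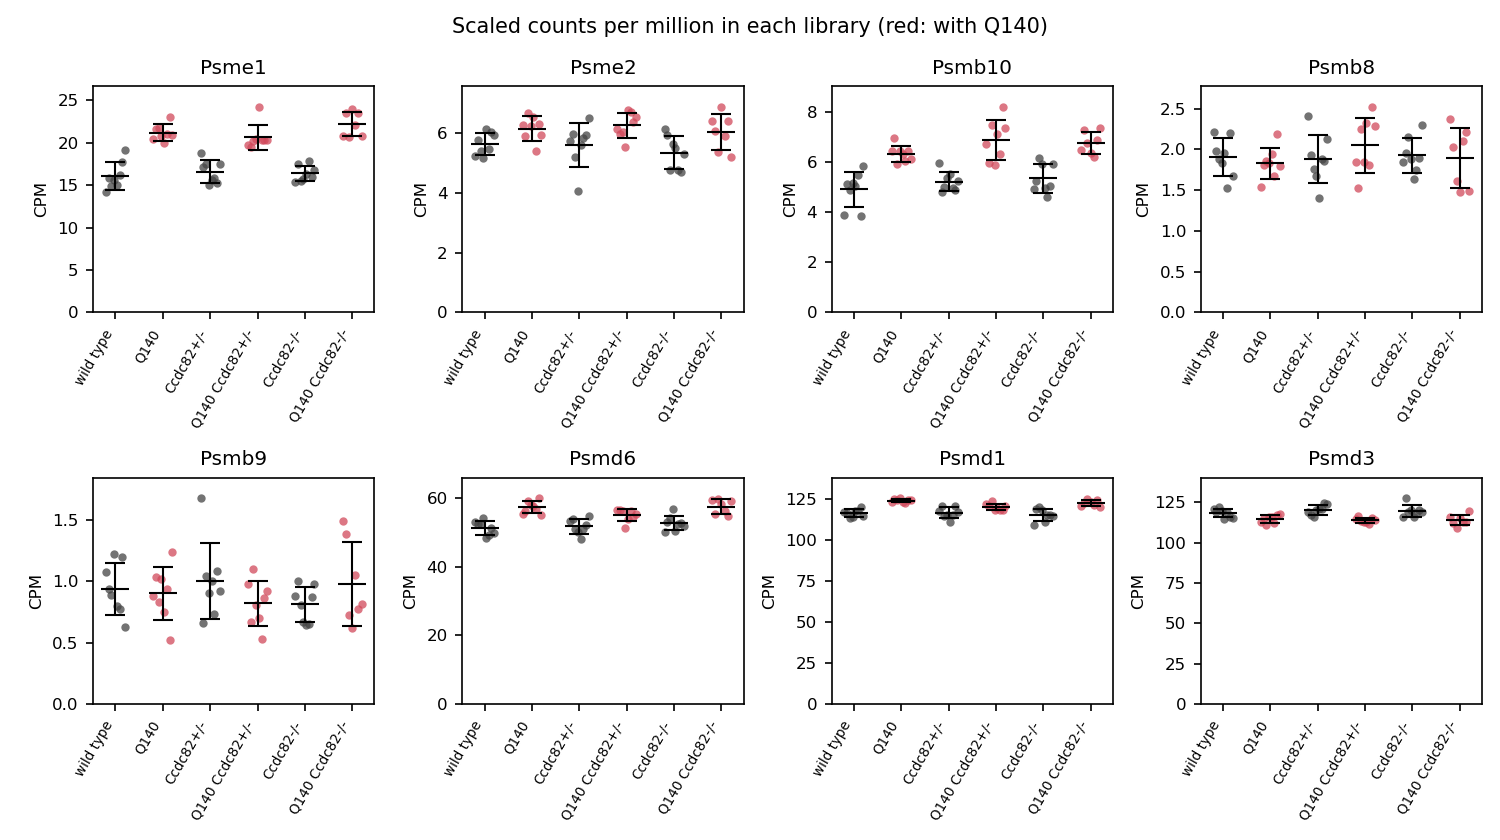
CPM (TMM scaled, axes from 0) of 8 proteasome genes, 1 point per library (red with Q140, grey without) in the 6 genotype groups, with bars for the mean ± SD. Psme1 is separate between Q140 and control libraries on each background, Psmb10 on the wild type and Ccdc82-/- backgrounds, and Psme2, Psmb8 and Psmb9 overlap.

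Psme3 and Psme4 did not pass with TMM (0.024 ± 0.016 and 0.033 ± 0.016, adjusted p = 0.21 and 0.0817, edgeR), and both were higher with total counts. Psmf1, which encodes the proteasome inhibitor PI31, was higher in the average by 0.065 ± 0.022 (adjusted p = 0.00944, edgeR), with 0.017 and 0.044 on the wild type and Ccdc82+/- backgrounds, not past the threshold, and 0.13 on the Ccdc82-/- background. Its lowest, median and highest CPM were 23.2, 24.6 and 27.2 in Ccdc82-/- and 25.5, 26.9 and 30.01 in Q140 Ccdc82-/- libraries, which overlap.

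The chaperones of core assembly act as pairs, Psmg1 with Psmg2 and Psmg3 with Psmg4, and in each pair 1 gene passed. Psmg3 was higher in the average by 0.16 ± 0.033 (adjusted p = 5.74e-05, edgeR) and Psmg2 by 0.066 ± 0.028 (adjusted p = 0.0413, edgeR, and 0.0582 with RLE size factors), while Psmg4 and Psmg1 stood at -0.00084 and -0.016 and did not pass. Psmg3 had a lowest, median and highest CPM of 4.20, 5.11 and 5.48 in wild type and 5.33, 6.00 and 6.36 in Q140 libraries, with 6 of 8 Q140 libraries above every wild type one. It passed on the wild type background (0.22) and not on the others (0.11 and 0.14). Of the base chaperones Psmd5, Psmd9 and Psmd10 only Psmd9 passed, at 0.061 ± 0.019 (adjusted p = 0.00439, edgeR).

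The Ccdc82 comparisons asked whether loss of 1 or both copies of Ccdc82 changes the same genes, with and without Q140. No member passed. With edgeR 0 of 47 members passed in Ccdc82+/- and in Ccdc82-/- against wild type, and 0 in Q140 Ccdc82+/- and in Q140 Ccdc82-/- against Q140, and in each of the 4 comparisons 0.00521% of all genes passed, which is Ccdc82 itself. The count at an unadjusted p under 0.05 was 2, 3, 6 and 1 members with edgeR, where 3.27%, 4.19%, 5.74% and 3.71% of all genes had one. It was 2, 2, 7 and 1 with DESeq2, for which the share of all genes was not counted. At the adjusted threshold DESeq2 also called 0, as did limma on FPKM. The tests of whether the Q140 difference itself depended on Ccdc82 gave 0 members for Ccdc82+/- and 0 for Ccdc82-/- with edgeR, DESeq2 and limma, where 0% of all genes passed with edgeR and 1 gene, no member, with DESeq2 for Ccdc82+/-. At an unadjusted p under 0.05 they gave 0 and 3 members with edgeR, where 5.27% and 4.3% of all genes had one. With DESeq2 they gave 1 and 4, and the share of all genes was not counted there either. The 95% interval of a member's log2 fold change had a median half-width of 0.056 to 0.058 in the 4 comparisons and of 0.079 and 0.081 in the interactions. Of the 47 members, 34 and 27 were above 0 in Ccdc82+/- and Ccdc82-/- against wild type. Against Q140, 8 and 17 were above 0 in Q140 Ccdc82+/- and Q140 Ccdc82-/-. The share of all genes above 0 was not counted. The members were measured in the same libraries, so their signs are not independent observations. In Q140 Ccdc82+/- 39 were below 0, with a median of -0.028 against 0.00055 over all genes, and in the interaction with Ccdc82+/- 38 were, with a median of -0.040 against -0.00031. With total counts 36 and 35 were below 0, and these comparisons share the Q140 and Q140 Ccdc82+/- libraries.

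The values with the smallest unadjusted p were small. Among Ccdc82+/- libraries Psme4 stood at -0.059 and Psmb1 at 0.043 against wild type, and Psmd12 stood at 0.064 in Ccdc82-/- libraries (adjusted p = 0.998 for the first 2 genes, edgeR). In the presence of Q140, Psmd5 stood at -0.078 in Ccdc82+/- libraries (adjusted p = 0.858, edgeR). Psmf1 stood at 0.078 in Q140 Ccdc82+/- and at 0.083 in Q140 Ccdc82-/- libraries, 2 comparisons that share the Q140 libraries. None of these passed.

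**Figure D5:**
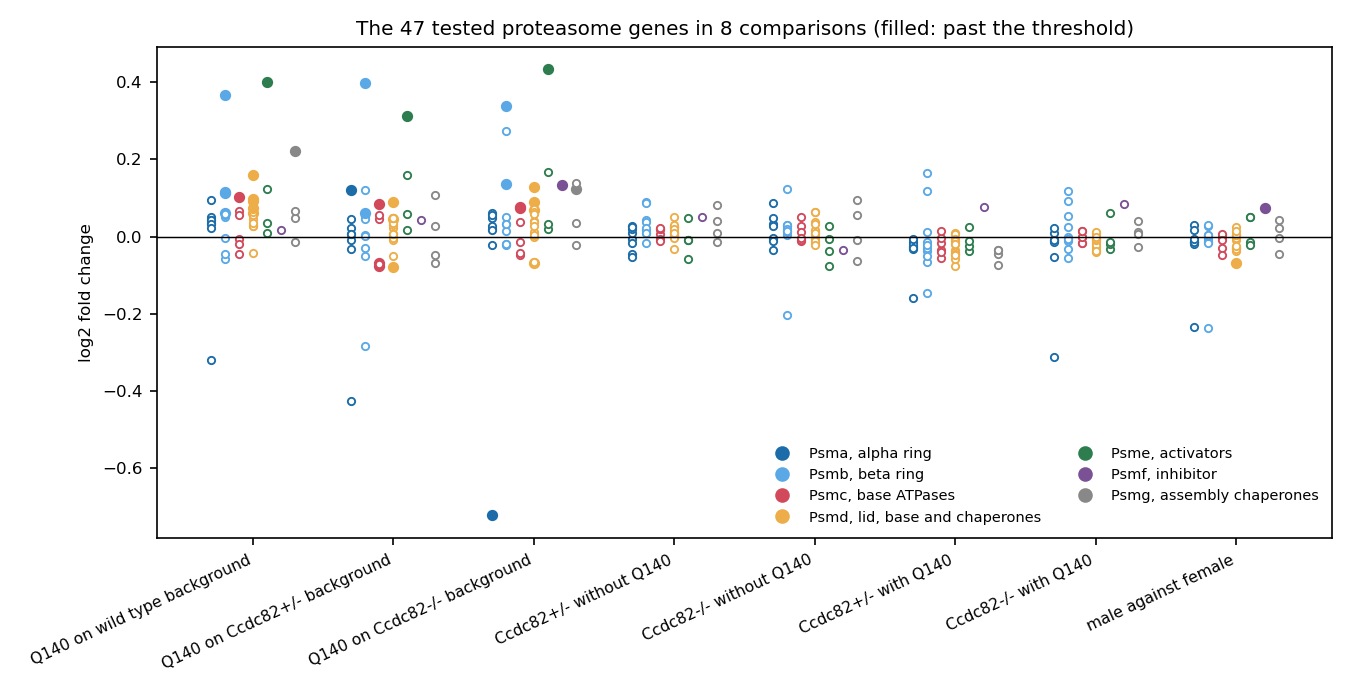
Log2 fold changes of the 47 tested proteasome genes in the 3 Q140 comparisons, the 4 Ccdc82 comparisons and the comparison of males with females (edgeR, TMM scaling), 1 point per gene, coloured by class and filled where the adjusted p was under 0.05. Filled points stand in the Q140 comparisons and for Psmd11 and Psmf1 between the sexes, and none in a Ccdc82 comparison.

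Both sexes were in every group. In the same model 2 members differed between males and females, where 8.67% of all genes did, 4.03% higher and 4.64% lower in males. Psmd11, a lid scaffold, was lower in males by 4.59% (log2 fold change -0.068 ± 0.019, adjusted p = 0.0212, edgeR), and Psmf1 was higher in males by 5.23% (0.074 ± 0.022, adjusted p = 0.0267, edgeR). The Q140 difference was not found to differ between sexes in any member (0 with edgeR and 0 with DESeq2, 1 each at an unadjusted p under 0.05, where 3.09% of all genes had one with edgeR), and 0% of all genes passed.

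Genes that work with the proteasome moved in both directions in the average Q140 comparison, as did all genes tested. The shares over all genes were 28.8% higher and 25.5% lower, and 45.1% and 15.5% with total counts. Of 11 other proteasome genes 4 were higher and 3 lower. Uchl5, a deubiquitinase of the 19S particle, was higher by 0.16 (adjusted p = 1.35e-08, edgeR), while AI314180, Shfm1, a lid subunit, and Adrm1, the ubiquitin receptor that holds Uchl5, stood at -0.065, -0.098 and -0.087. With total counts 7 of the 11 were higher and 0 lower, and AI314180, Shfm1 and Adrm1 did not pass. Of 14 regulators of proteasome genes 3 were higher and 3 lower, and with total counts 9 were higher and 2 lower. Nfe2l1, the transcription factor that raises proteasome genes when the proteasome is impaired, was lower by 11.1% (log2 fold change -0.17, adjusted p = 4.38e-18, edgeR) and Ddi2, the protease that activates it, by 8.29% (-0.12), and both were lower with total counts too (-0.11 and -0.061). Nfya, a subunit of the factor that binds CCAAT boxes, was higher by 27.1% (0.35). Nfe2l1 had a lowest, median and highest CPM of 344, 364 and 376 in wild type and 316, 325 and 339 in Q140 libraries, which do not overlap.

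Of 15 ubiquitin and shuttle genes 4 were higher and 5 lower, and with total counts 10 were higher and 2 lower. For comparison, 28.8% of all genes were higher and 25.5% lower, and 45.1% and 15.5% with total counts. Uba1, the ubiquitin-activating enzyme, the unfoldase gene Vcp and the autophagy receptor gene Sqstm1 were higher by 0.18, 0.11 and 0.13, and the shuttle gene Ubqln4 was lower under both scalings (-0.23, and -0.16 with total counts). Of 18 interferon and antigen presentation genes, the group the immunoproteasome is known to accompany, 2 were higher and 3 lower, and with total counts 4 were higher and 1 lower. The class I gene H2-D1 was higher by 12.5% (log2 fold change 0.17, adjusted p = 0.000242, edgeR) and also higher with total counts (0.23). Ifi27l2a, an interferon-induced gene, was lower by 74.3% (-1.96), and Stat2 stood at -0.11 with TMM and did not pass with total counts. The median of the 18 genes was 0.012, against 0.0043 over all genes.

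Markers of other cell types moved with Q140 beside these results. Among all genes 28.8% were higher in the average and 25.5% lower, and 45.1% and 15.5% with total counts. All 12 microglia markers were lower in the average, from -0.077 to -0.17, and 9 of 12 with total counts. Their summed CPM was 494 to 532 in wild type and 468 to 507 in Q140 libraries, 497 to 562 and 446 to 517 on the Ccdc82+/- background and 501 to 552 and 448 to 496 on the Ccdc82-/- background. The 8 endothelial markers were all lower with TMM and 6 of 8 with total counts. Of 6 markers of cortical excitatory neurons 3 were higher and 0 lower, with sums of 110.1 to 124 CPM in wild type and 131 to 155 in Q140 libraries. Of 8 astrocyte markers 1 was higher and 4 lower (1 and 3 with total counts), of 8 oligodendrocyte markers 0 and 4 (3 and 3), and of 8 markers of all neurons 2 and 4 (4 and 1). Of 8 choroid plexus markers 1 was higher and 1 lower, and of 6 ependymal and 5 blood markers 0 passed with edgeR, 0 also at an unadjusted p under 0.05. No marker in these lists was at 0 in all libraries, and the part of cell composition in the differences of Psme1, Psmb10 or any other member was not tested.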

How the data were processed

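RNA-seq libraries of striatum from 47 mice were analysed, grouped by the genotype in the labels. The members and the gene lists were chosen with earlier results of these data known. The authors deposited raw read counts per gene, whole numbers with no normalization. They also deposited FPKM values, which are the counts divided by the library total and by 1 length per gene. Per the submitters' processing notes the tools were HTSeq 0.12.3, SAMtools 1.10 and STAR 2.7.5c, and the builds GRCm38 and mm10. Their settings, the annotation release and the strand used in counting are not given in the sources used here. Libraries were prepared with a stranded kit, per the labels' protocols. Gene positions and shared exon bases were read from GENCODE release M21, and promoter windows from RefSeq (GRCm38.p6).

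Counts were fitted in R 4.3.3 with edgeR 4.0.16. Genes were filtered with filterByExpr, libraries were scaled by TMM, and 1 robust quasi-likelihood model with 6 genotype groups and sex covered all 47 libraries. P-values were adjusted over all 19193 genes tested by Benjamini and Hochberg's method, and a gene passed at an adjusted p under 0.05. The Q140 average is the mean of the 3 Q140 contrasts. DESeq2 1.42.0, limma 3.58.1 on log2 FPKM plus 0.1 for genes with a mean FPKM of at least 0.1, other scalings, filters and subsets of libraries were alternatives. Exact permutation tests used scipy 1.17.1 in Python 3.11.15. The model was tested on simulated data for Q140 against wild type on 19068 genes: 17 of 100 genes changed by 0.1 on the log2 scale and 91 of 100 changed by 0.4 were recovered. No other gene was changed there, while 34.7% of genes passed in the data, and the adjusted threshold depends on that share. The recovered shares therefore do not give the power of the Q140 tests or of their average.

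Statistics are given for the members that passed in the Q140 average with 1 sign on the 3 backgrounds (14 of 28 called, by smallest p), the catalytic genes, the member of each class with the largest change, those called for sex, and the highest and lowest levels. From each list of other genes up to 4 with the smallest p are named. A gene of these lists is not reported here. Other members named beside them were chosen after their values were seen. The labels reuse replicate numbers in each genotype and sex. Deviations of same-numbered libraries had a median correlation of -0.0062 and a lowest of -0.36, and 7 of 47 libraries were closest to their own number, so the numbers were not treated as pairs. The chi-square per gene between libraries of a group was 3.53 to 23.7, so no library was a repeat of another within sampling noise.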

Additional observations from a re-analysis of the deposited data

Results flagged for a closer look

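In each group of 7 or 8 libraries the highest and the lowest CPM were compared with the rest of the group for the 25 proteasome genes given with full statistics, and not for the other members. Of 149 groups of values 10 held a library whose gap to its nearest neighbour was large for the range, and chance gives about 1 in 20 for normally distributed values. That rate does not apply to Psmb11, which had reads in only 9 of the 47 libraries. Psme1 stood at 24.3 CPM in Q140 Ccdc82+/- male 1, where the other 7 libraries lay between 19.5 and 20.4. Psmd3 stood at 127.6 in Ccdc82-/- female 2 (others 115.9 to 120.1), Psmc3 at 92.5 in wild type female 2 (86.6 to 88.8) and Psmb4 at 64.2 in Q140 male 3 (61.5 to 62.6). Psmc1 was low in Q140 female 1 at 91.8 (95.5 to 98.5) and Psmb6 in Q140 Ccdc82-/- female 2 at 62.0 (64.9 to 66.7). Psmb9 stood at 1.68 in Ccdc82+/- female 1 (0.662 to 1.09). Psmb11, which had too few reads to be tested, stood at 0.0244 in wild type female 4 and 0.0425 in Ccdc82-/- male 4, where the other libraries were at 0, and at 0.0792 in Q140 Ccdc82-/- male 4 (0 to 0.0180).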

How the results depend on the processing

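Counts of members past the threshold were 12, 10 and 12 on the wild type, Ccdc82+/- and Ccdc82-/- backgrounds and 28 in the Q140 average (34.7%, 35%, 33.2% and 54.3% of all genes). With total counts, chosen after seeing the data, they were 35, 32 and 35, where 42%, 44.1% and 41.8% of all genes passed, and with limma on the deposited FPKM values, which are scaled the same way, 34, 32 and 35 (40.7%, 42.6% and 40.3% of all genes). Psmc2, Psmc5 and Psmd3 then turned from below to above 0 in the average: 0.016, 0.012 and 0.00023 with total counts, 0.0164, 0.0108 and 0.000369 with FPKM plus 0.1 with or without the filter, 0.0165, 0.0108 and 0.000371 with FPKM plus 0.01, and 0.0155, 0.0107 and 0.000352 with FPKM plus 1. With fewer libraries fewer members passed: 3, 2, 3 and 12 in the average with females only (22.4%, 17.3%, 17.9% and 39.6% of all genes), and 6, 3, 8 and 16 with males only (20.4%, 24.3%, 19.6% and 41.4%). With the plate column of the well as a factor 13, 6 and 7 passed on the 3 backgrounds and 24 in the average. Of all genes 29.98%, 30.27%, 29.5% and 50.53% passed there, smaller shares than without this factor, and the cause was not tested. With the replicate block the counts were 12, 11, 11 and 27 (34.6%, 35.1%, 32.7% and 54.2% of all genes). The count was 0 in each Ccdc82 comparison and interaction, as in every alternative run for these. The FPKM pseudocounts 0.01 and 1 and the FPKM fit without the filter were run for the Q140 average only. RLE size factors and DESeq2 gave 25 and 26 in the average (54.0% and 54.2% of all genes). Leaving out the 2 libraries highest in choroid plexus markers, chosen after seeing the data, gave 25 (53.7% of all genes). At this depth Psma8, Psmb9 and Psmb8 had the widest intervals, and Psmb11 could not be tested.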
